A study of Homo sapiens with 6 samples.

Results

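The metallothioneins MT1E, MT1F, MT1G, MT1M, MT1X and MT2A, the transcription factor gene MTF1 and the zinc exporter gene SLC30A1 were followed in HepG2 cells carrying a hairpin against TCTP. They were taken by gene symbol, and all 8 were found among the 26389 genes of the count table. Messenger RNA had been sequenced from 6 libraries of HepG2, a human hepatocellular carcinoma line. In 3 libraries (shTCTP) the cells had received a plasmid expressing a short hairpin RNA against TCTP, the translationally controlled tumour protein encoded by TPT1, and in 3 (shCtrl) a control hairpin plasmid. Every library came from the same line and medium, with plasmids delivered by a lipid reagent. The labels give a harvest time, 48 h, for quantitative PCR. The harvest time of the sequenced cells, the share of cells that took up plasmid and the number of separate cultures are not known here. With no record of separate cultures, the p-values reflect the spread between these libraries alone, and that spread may be technical. TPT1, the targeted gene, averaged 1799 ± 237 CPM in shTCTP and 2371 ± 178 CPM in shCtrl libraries (SD, n = 3 each; CPM being read counts scaled to library size with TMM factors). TPT1 was lower in every shTCTP library than in any shCtrl library, but at a log2 fold change of -0.40 (SE 0.17) the knockdown itself did not pass over all genes (edgeR quasi-likelihood adjusted p = 0.396).

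Metallothioneins are small proteins rich in cysteine that bind zinc and copper and can take up cadmium. Zinc-bound MTF1 enters the nucleus and switches on metallothionein genes and SLC30A1 through short DNA sequences called metal response elements. SLC30A1, in the plasma membrane, carries zinc out of the cytosol, and in liver the metallothioneins also answer to glucocorticoids and inflammatory signals.

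MT1M was too low to be tested, and none of the other 7 genes passed the test between shTCTP and shCtrl cells. The metallothionein messages were abundant, led by MT2A and MT1E, and the 3 shCtrl libraries spread more widely than the group means differed. Of these 7, MTF1 had the largest estimate, 1.39-fold in shTCTP over shCtrl cells (95% interval 1.04 to 1.88, n = 3 each), and did not pass after adjustment over all genes. The estimate for SLC30A1 was 1.04-fold, with a 95% interval of 0.788 to 1.36.

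The 6 metallothionein genes lay together on chromosome 16 of GRCh38, from 56608199 to 56684196, a span of 76.0 kb. In the GENCODE annotation MT1G was on the minus strand and the other 5 on the plus strand. The principal transcript of each had 3 exons and 186 coding bases, stop codon included. MTF1 (11 exons) was on the minus strand of chromosome 1 at 37809567 to 37859620, and SLC30A1 (2 exons) on the same strand at 211571568 to 211578742. The coding sequences are shown because their likeness bears on how reads could be shared among them. Capitals mark bases that differ from MT2A in a pairwise alignment.
MT2A: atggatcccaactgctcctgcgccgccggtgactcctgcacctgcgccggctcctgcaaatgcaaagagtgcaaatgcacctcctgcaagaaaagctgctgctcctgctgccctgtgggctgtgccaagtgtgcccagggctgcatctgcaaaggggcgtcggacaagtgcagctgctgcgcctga
MT1E: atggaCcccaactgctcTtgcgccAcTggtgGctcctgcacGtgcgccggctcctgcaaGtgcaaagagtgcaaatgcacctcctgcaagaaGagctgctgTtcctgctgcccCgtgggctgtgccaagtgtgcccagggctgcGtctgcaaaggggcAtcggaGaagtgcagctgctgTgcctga
MT1G: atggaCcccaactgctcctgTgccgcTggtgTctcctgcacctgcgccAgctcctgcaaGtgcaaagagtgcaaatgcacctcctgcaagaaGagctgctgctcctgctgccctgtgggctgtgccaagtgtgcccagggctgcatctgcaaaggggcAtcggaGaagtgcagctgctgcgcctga
MT1X: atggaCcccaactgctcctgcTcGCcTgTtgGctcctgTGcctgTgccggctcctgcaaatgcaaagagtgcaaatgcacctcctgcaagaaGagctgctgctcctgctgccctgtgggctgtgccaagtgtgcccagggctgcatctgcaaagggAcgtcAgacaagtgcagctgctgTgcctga
MT1F: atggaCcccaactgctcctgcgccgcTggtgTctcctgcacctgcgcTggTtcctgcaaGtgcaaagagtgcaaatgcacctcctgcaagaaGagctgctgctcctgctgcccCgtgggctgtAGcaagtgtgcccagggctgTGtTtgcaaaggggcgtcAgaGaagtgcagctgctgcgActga
MT1M: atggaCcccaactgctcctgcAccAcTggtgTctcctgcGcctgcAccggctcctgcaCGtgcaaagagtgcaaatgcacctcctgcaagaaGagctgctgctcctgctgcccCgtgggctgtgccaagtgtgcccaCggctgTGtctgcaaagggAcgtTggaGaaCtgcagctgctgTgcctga
MT1G was closest to MT2A, with 9 differing bases and 95.2% identity, and MT1M farthest, with 19 and 89.8%. MT1E and MT1X each differed from MT2A at 14 bases and MT1F at 16. Among all pairs of the 6 coding sequences, identity ran from 88.7% for MT1F and MT1X to 95.2% for MT1G and MT2A. Each sequence held 20 cysteine codons.

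The genes differed in how much of their transcript other genes share. For MT1X, 45.1% of the 50-base windows of the principal transcript also occurred exactly in transcripts of other genes, and for MT1G 20.2%. The share was 7.1% for MT1M, 5.3% for MT1E, 4.9% for MT2A and 3.6% for MT1F. It was 0.6% for MTF1 and 0.0% for SLC30A1. The authors' rule for reads that match several genes is not known here. The values of single metallothioneins are therefore uncertain, those of MT1X and MT1G most by this measure. The windows covered the principal transcript only, of 450 bases for MT1X and 406 for MT1G. The gene lengths implied by the authors' values were 858 and 782 bases, and the rest was not searched. Reads were 150 bases long, and such a read is shared exactly only where its whole length is, so these are not shares of reads. Matches with differing bases were not searched. Some windows of each of the 6 metallothioneins also occurred in genes outside the 6. MT1A was among these for MT1X, MT1G, MT1M and MT1F, and MT2P1 for MT1E and MT2A. A sum over the family does not depend on how reads were split among its 6 members, although reads discarded for matching several genes would be missing from it too.

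Promoter sequence was matched by symbol for 4 of the 8 genes in RefSeq (GRCh38.p14), namely MT2A, MT1X, SLC30A1 and MTF1. The 250 bases before each RefSeq start are shown 5′ to 3′ on the strand of the gene, because MTF1 binds metal response elements in promoters. Capitals mark matches on either strand to the core of the metal response element, searched as TGCACNC and TGCGCNC with N for any base. Matches of this core could overlap each other.
MT2A (chr16:56608334-56608583, plus strand): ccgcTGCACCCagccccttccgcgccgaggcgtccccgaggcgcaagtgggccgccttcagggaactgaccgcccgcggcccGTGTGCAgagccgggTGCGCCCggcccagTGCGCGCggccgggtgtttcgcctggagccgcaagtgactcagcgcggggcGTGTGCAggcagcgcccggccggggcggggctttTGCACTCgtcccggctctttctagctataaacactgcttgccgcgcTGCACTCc
MT1X (chr16:56682220-56682469, plus strand): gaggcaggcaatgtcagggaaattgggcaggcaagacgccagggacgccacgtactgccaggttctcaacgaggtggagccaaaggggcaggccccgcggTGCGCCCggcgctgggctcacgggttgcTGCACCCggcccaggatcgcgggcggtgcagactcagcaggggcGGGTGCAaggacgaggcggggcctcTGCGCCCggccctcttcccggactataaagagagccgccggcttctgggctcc
SLC30A1 (chr1:211579162-211579411, minus strand): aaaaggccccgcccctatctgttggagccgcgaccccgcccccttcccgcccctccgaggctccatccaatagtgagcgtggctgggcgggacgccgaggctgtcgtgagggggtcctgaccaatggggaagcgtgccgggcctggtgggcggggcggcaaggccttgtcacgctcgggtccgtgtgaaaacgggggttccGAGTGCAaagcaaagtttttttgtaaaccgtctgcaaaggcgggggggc
MTF1 (chr1:37859593-37859842, minus strand): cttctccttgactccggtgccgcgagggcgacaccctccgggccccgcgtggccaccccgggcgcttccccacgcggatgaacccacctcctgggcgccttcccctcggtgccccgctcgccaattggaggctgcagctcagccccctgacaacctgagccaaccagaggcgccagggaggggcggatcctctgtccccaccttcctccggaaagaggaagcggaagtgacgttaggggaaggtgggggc
The MT2A window held 7 matches, a number reached by 0.03% of 35116 promoter windows of the same length. MT1X held 4, a number reached by 0.37% of them. SLC30A1 held 1, and at least 1 was found in 24.8% of all windows. No match lay in the MTF1 window, which says only that these letters are not in those 250 bases. The RefSeq starts differ from the ends of the GENCODE genes. The SLC30A1 window begins at 211579162, beyond the GENCODE gene end at 211578742, and the bases between were not searched. The MT2A window begins at 56608334, after the GENCODE gene start at 56608199. The GC content was 73.2% for MT2A, 70.0% for MT1X, 66.4% for SLC30A1 and 70.0% for MTF1, against a median of 58.0% over all windows.

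Gene reads numbered 25427614 to 30486409 in shTCTP and 29969485 to 30348435 in shCtrl libraries. The third shTCTP library was the shallowest and stood apart: across genes its correlation with the 5 remaining libraries averaged 0.977, where the same mean was 0.986 to 0.987 for each of those 5. All 10 hepatocyte and HepG2 markers had reads, ALB and SERPINA1 among them, with a summed level of 15954 to 19426 CPM in shTCTP and 20791 to 21573 CPM in shCtrl libraries. Of these 10, 0 passed in either direction, against 1.41% of all tested genes. All 10 estimates were negative, with a median log2 fold change of -0.30, and the groups did not overlap for 4 of 10, against 17.1% of all tested genes. In this list the smallest p belonged to the plasma carriers TTR (-0.50, edgeR adjusted p = 0.164) and TF (-0.36, edgeR adjusted p = 0.454). The list of markers of other cell types, with 12 of 15 in the table, summed to 167 to 212 CPM in shTCTP and 157 to 202 CPM in shCtrl libraries. Its highest genes were SOX9, ACTA2 and EPCAM, averaging 64.5, 54.1 and 51.7 CPM in shTCTP and 55.0, 48.2 and 54.6 CPM in shCtrl libraries. CD3E, PECAM1, VWF, COL3A1 and LRAT were too low to be tested. The immune marker PTPRC, endothelial marker KDR and fibroblast marker DCN of the list are not among the rows used here. Of the 7 tested 0 passed, against the same 1.41% of all tested genes. The smallest p was for COL1A1 (1.20, edgeR adjusted p = 0.370) and CD68 (-0.52, edgeR adjusted p = 0.526). The part of either list in the values of the 8 genes was not tested. In bulk RNA, fewer cells of a type and less RNA per cell cannot be told apart.

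Per length, the levels of the metallothioneins kept the same order in every library except for MT1X and MT1F, with MT2A first. FPKM is the authors' read count scaled to gene length and library size, without the TMM factors used for CPM. In fits on log2(FPKM + 1) and log2(FPKM + 0.1) the median log2 fold change of all tested genes was 0.06 and 0.09, toward shTCTP. MT2A, the main metallothionein of most human tissues, averaged 369 ± 72.2 FPKM in shTCTP and 301 ± 71.2 FPKM in shCtrl libraries (SD, n = 3 each). MT1E followed with 143 ± 13.1 FPKM in shTCTP and 116 ± 23.4 FPKM in shCtrl libraries, and MT1G with 46.4 ± 3.24 FPKM in shTCTP and 39.4 ± 12.9 FPKM in shCtrl libraries (SD, n = 3 each). MT2A exceeded MT1E, and MT1E exceeded MT1G, by at least 2.01-fold in all 6 libraries. MT1G exceeded MT1X in 6 of 6 libraries, by 1.14-fold to 1.80-fold. MT1X, at 32.0 ± 8.92 FPKM in shTCTP and 25.8 ± 5.19 FPKM in shCtrl libraries, and MT1F, at 28.6 ± 2.81 FPKM in shTCTP and 27.3 ± 7.01 FPKM in shCtrl libraries, did not keep an order, MT1X being higher in 2 of 6 libraries (SD, n = 3 each).

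The other 3 genes were far lower than these. SLC30A1 stood at 2.32 ± 0.358 FPKM in shTCTP and 2.08 ± 0.657 FPKM in shCtrl libraries, and MTF1 at 0.903 ± 0.327 FPKM in shTCTP and 0.590 ± 0.0608 FPKM in shCtrl libraries (SD, n = 3 each). MT1M, a metallothionein known for its expression in normal liver, was close to the limit of detection. It had 7, 5 and 0 reads in shTCTP libraries and 5, 5 and 16 in shCtrl libraries. The groups overlapped, and 1 shCtrl library was above the rest. The library at 0 reads allows up to 0.101 CPM, a limit of 3 reads that covers counting error only. MT1M was too low to be tested. Without a filter on low counts its log2 fold change was -1.14 (edgeR adjusted p = 0.714).

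**Figure D1:**
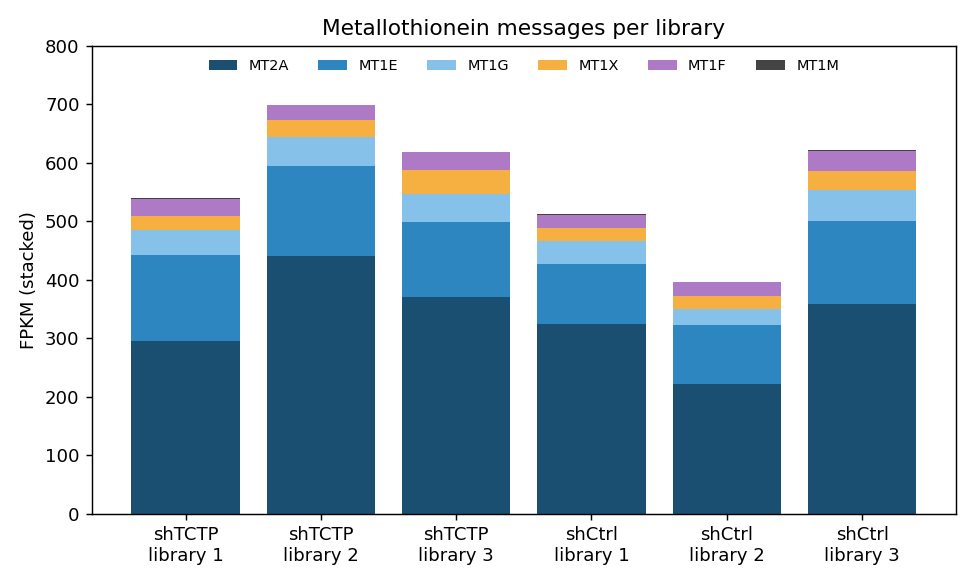
FPKM of the 6 metallothioneins, stacked, in each of the 3 shTCTP and 3 shCtrl libraries. MT2A and MT1E make up most of every bar, the tallest bar is shTCTP library 2 and the shortest shCtrl library 2.

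Within the family, MT2A and MT1E led in every library. MT2A took 54.9%, 62.9% and 59.9% of the family's summed FPKM in shTCTP libraries, against 63.3%, 55.7% and 57.6% in shCtrl libraries. MT1E took 27.2%, 22.0% and 20.8% in shTCTP libraries, against 20.1%, 25.8% and 23.1% in shCtrl libraries. The groups overlapped for both shares. For each 100 MT2A reads there were 52.7, 37.1 and 36.9 MT1E reads in shTCTP libraries and 33.8, 49.1 and 42.5 in shCtrl libraries, again with overlap.

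MT2A had 319, 458 and 329 CPM in shTCTP libraries, against 329, 239 and 403 CPM in shCtrl libraries. The highest value was in shTCTP library 2 and the lowest in shCtrl library 2, and the groups overlapped. The log2 fold change was 0.19 (SE 0.19, 95% interval -0.21 to 0.58, edgeR adjusted p = 0.779), an estimate of 1.14-fold with an interval of 0.865 to 1.50. It was -0.01 without shTCTP library 2 and 0.01 without shCtrl library 2.

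MT1E had 168, 170.1 and 121 CPM in shTCTP libraries, against 111, 118 and 171 CPM in shCtrl libraries. The first 2 shTCTP libraries and the third shCtrl library were high and the other 3 low. Its log2 fold change was 0.20 (SE 0.17, 95% interval -0.17 to 0.57, edgeR adjusted p = 0.735). With 1 library left out it ran from 0.08 without shCtrl library 1 to 0.42 without shCtrl library 3.

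MT1G had 34.9, 38.7 and 31.8 CPM in shTCTP libraries, against 29.8, 22.0 and 44.8 CPM in shCtrl libraries. The shCtrl values lay on both sides of all 3 shTCTP values. Its log2 fold change was 0.13 (SE 0.20, 95% interval -0.29 to 0.54, edgeR adjusted p = 0.868), and -0.09 without shCtrl library 2. MT1X had 21.3, 26.4 and 30.6 CPM in shTCTP libraries, against 19.3, 20.6 and 29.8 CPM in shCtrl libraries, and a log2 difference of 0.17 between the groups (SE 0.18, edgeR adjusted p = 0.785). With 1 library left out it ran from 0.05, without shCtrl library 1 or shTCTP library 3, to 0.39 without shCtrl library 3. MT1F had 23.5, 19.6 and 20.3 CPM in shTCTP libraries, against 17.2, 18.8 and 29.5 CPM in shCtrl libraries, and a log2 difference of -0.05 (SE 0.18, edgeR adjusted p = 0.958). For both genes the third shCtrl library was the highest of its group and the groups overlapped. The sign for MT1F turned in 4 of 17 alternative fits.

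**Figure D2:**
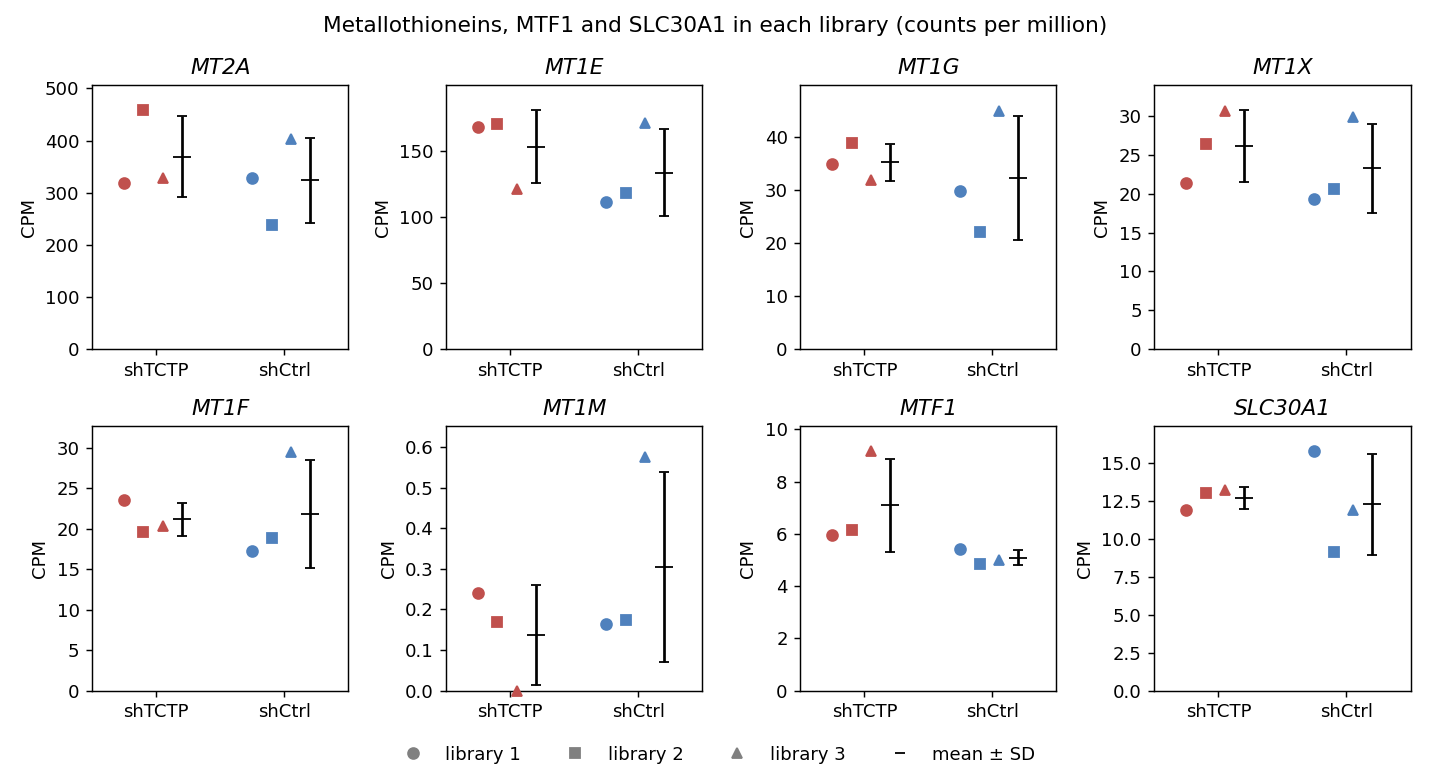
CPM of the 8 genes in each library, shTCTP on the left and shCtrl on the right of each panel, with the mean and SD of 3 libraries as black bars. MTF1 is the gene whose groups do not overlap, and shCtrl library 3 is the highest shCtrl library for each of the 6 metallothioneins.

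Summed over the 6 genes, metallothionein reads made up 567, 713 and 533 CPM in shTCTP libraries, against 507, 419 and 679 CPM in shCtrl libraries. The means were 604 ± 95.7 CPM in shTCTP and 535 ± 132 CPM in shCtrl libraries (SD, n = 3 each), a ratio of 1.13, and the difference was smaller than the SD of the shCtrl libraries. The ratio was 1.02 without shCtrl library 2, 1.03 without shTCTP library 2 and 1.31 without shCtrl library 3.

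The metallothioneins varied more than most genes between shCtrl libraries. Their coefficients of variation there were 24.7% for MT1E, 24.7% for MT1X, 25.3% for MT2A, 30.4% for MT1F and 36.1% for MT1G. Over 7038 tested genes of at least 10 CPM the median was 10.9% and the 90th percentile 19.4%. In shTCTP libraries they were 18.1% for MT1E, 17.7% for MT1X, 21.0% for MT2A, 9.73% for MT1F and 9.83% for MT1G, with a median of 11.3% and a 90th percentile of 22.8% over the same genes. The difference in spread between the groups was not tested. Of the shCtrl libraries, the third was the highest for all 6 metallothioneins.

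MTF1, the zinc sensor that activates the family, had 5.96, 6.15 and 9.15 CPM in shTCTP libraries, against 5.41, 4.86 and 4.99 CPM in shCtrl libraries. Every shTCTP library lay above every shCtrl library, and the shTCTP library that stood apart was the highest. Its log2 fold change was 0.48 (SE 0.20, 95% interval 0.05 to 0.91, edgeR unadjusted p = 0.0309, adjusted p = 0.382). By unadjusted p it ranked 1146 of 14197 tested genes. Without shTCTP library 3 the log2 fold change was 0.26. MTF1 is a long gene, 8321 bases by the ratio of counts to FPKM, and tested genes at least as long had a median log2 fold change of 0.08, against -0.01 without shTCTP library 3. With a length correction MTF1 stood at 0.39 (edgeR adjusted p = 0.320).

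SLC30A1, a direct target of MTF1, had 11.9, 13.0 and 13.2 CPM in shTCTP libraries, against 15.8, 9.16 and 11.9 CPM in shCtrl libraries. The shCtrl values again lay on both sides of the shTCTP values. The log2 fold change was 0.05 (SE 0.19, 95% interval -0.34 to 0.44, edgeR adjusted p = 0.953), -0.12 without shCtrl library 2 and 0.27 without shCtrl library 1.

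Of the 8 genes, 7 were tested, and 0 were called higher and 0 lower at an edgeR adjusted p under 0.05, against 1.26% of all 14197 tested genes called higher, 0.148% called lower and 1.41% called in either direction. DESeq2 and limma voom also called 0. One gene, MTF1, had an unadjusted edgeR p under 0.05, which 11.1% of all tested genes had, 6.80% with the higher level in shTCTP cells. MTF1 was also the 1 of 7 whose groups did not overlap, with shTCTP higher, which was so for 9.83% of all tested genes. The median log2 fold change of the 5 tested metallothioneins was 0.17, and that of all tested genes was -0.00. Each of their 95% intervals held no difference, with lower bounds of 0.739-fold (MT1F) to 0.890-fold (MT1E) and upper bounds of 1.27-fold (MT1F) to 1.50-fold (MT2A). Genes as short as the metallothioneins (766 to 1097 bases by the ratio of counts to FPKM, 586 genes) had a median log2 fold change of -0.06, or 0.04 without shTCTP library 3.

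**Figure D3:**
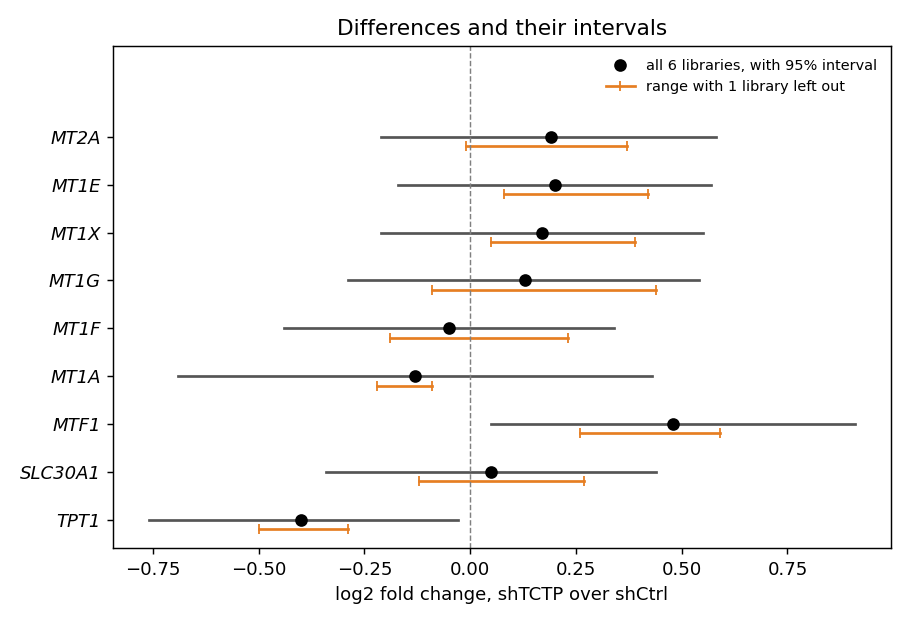
Log2 fold change, shTCTP over shCtrl, of the tested genes and of MT1A and TPT1. Black points and lines are the estimate and its 95% interval, and orange lines are the range with 1 of the 6 libraries left out. The intervals of the metallothioneins and SLC30A1 span 0, and those of MTF1 and TPT1 lie just to 1 side of it.

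Further metallothionein genes contributed little. MT1A had 41, 46 and 41 reads in shTCTP and 51, 40 and 47 in shCtrl libraries. The groups overlapped, and the test gave -0.13 on the log2 scale (SE 0.26, edgeR adjusted p = 0.907). MT1B and the pseudogenes MT1DP, MT1JP and MT1P1 had 0 to 4 reads in any library and were not tested.

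No other zinc transporter passed the edgeR test. Zinc exporters of the SLC30 family move zinc out of the cytosol. Of 6 tested besides SLC30A1 0 were higher and 0 lower, against 1.26% and 0.148% of all tested genes. Their median log2 fold change was -0.05. SLC30A3, best known for loading zinc into synaptic vesicles in the brain, had 1.68, 1.48 and 0.979 CPM in shTCTP libraries, against 2.20, 2.64 and 2.73 CPM in shCtrl libraries. Its groups did not overlap, with shTCTP lower, which was so for 7.30% of all tested genes. The log2 fold change of -0.87 (SE 0.27) did not pass (edgeR adjusted p = 0.162). SLC30A10, which exports manganese, stood at -0.30 (SE 0.23, edgeR adjusted p = 0.689).

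SLC39 transporters bring zinc into the cytosol. Of 11 tested 0 were higher and 0 lower, against 1.26% and 0.148% of all tested genes. Their median log2 fold change was -0.15, and 2 of the 11 estimates were positive, against 49.6% over all tested genes. SLC39A5, a zinc importer of liver and gut, had 49.9, 55.4 and 43.6 CPM in shTCTP libraries, against 64.7, 70.3 and 71.9 CPM in shCtrl libraries. Every shTCTP library lay below every shCtrl library, which was so for 7.30% of all tested genes. The log2 fold change was -0.47 (SE 0.13, edgeR adjusted p = 0.108), and DESeq2 gave an adjusted p of 0.0382, past the threshold. SLC39A10, which metal-bound MTF1 represses in mouse and zebrafish, stood at -0.52 (SE 0.27, edgeR adjusted p = 0.490) with overlapping groups. In each of the exporter and importer lists 1 gene had an unadjusted edgeR p under 0.05, which 11.1% of all tested genes had.

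**Figure D4:**
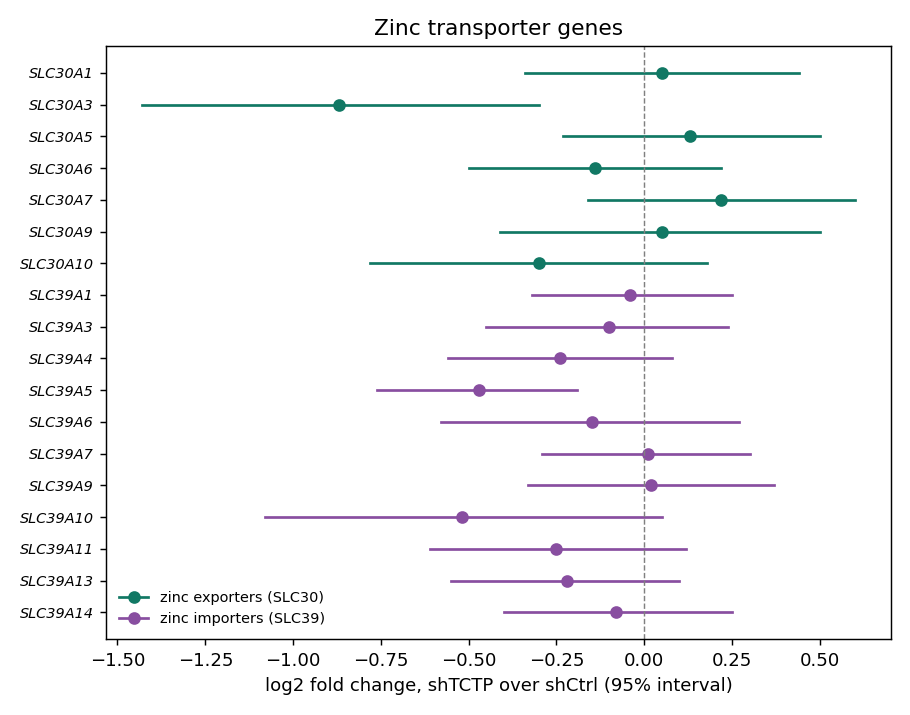
Log2 fold change, shTCTP over shCtrl, with its 95% interval for each tested zinc exporter (SLC30, green) and importer (SLC39, purple). SLC30A3 and SLC39A5 are the 2 whose intervals exclude 0, both below it.

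Among 15 tested genes of copper handling 0 were higher and 1 lower, where 1.26% and 0.148% of all tested genes were. Their median log2 fold change was -0.04. The gene called lower was CP, ceruloplasmin, the copper-carrying ferroxidase of plasma. It had 19.6, 12.7 and 17.7 CPM in shTCTP libraries, against 30.5, 35.3 and 21.8 CPM in shCtrl libraries. Its groups did not overlap, with shTCTP lower, which was so for 7.30% of all tested genes. Its log2 fold change was -0.81 (SE 0.19, edgeR adjusted p = 0.0440). It missed the threshold without shCtrl library 1 or 2 or shTCTP library 2 (edgeR adjusted p of 0.207, 0.311 and 0.186), and by limma voom (adjusted p = 0.0637).

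Of 15 tested stress genes that metals can induce 3 rose and 0 fell, where 1.26% of all tested genes rose and 0.148% fell, with a median log2 fold change of 0.28, or 0.19 without shTCTP library 3. They were the transcription factor genes ATF3 (1.84, edgeR adjusted p = 1.5e-06), FOS (1.83, adjusted p = 9.9e-05) and EGR1 (1.42, adjusted p = 6.7e-04), which many other stimuli induce as well. ATF3 averaged 109.6 ± 7.58 CPM in shTCTP and 30.6 ± 0.616 CPM in shCtrl libraries (SD, n = 3 each), with no overlap. Of 10 tested genes induced by glucocorticoids, which also act on MT2A, 1 rose and 0 fell, against the same 1.26% and 0.148% of all tested genes, with a median of 0.32, or 0.16 without shTCTP library 3. It was DUSP1, a phosphatase of MAP kinases, with 115 ± 3.11 CPM in shTCTP and 39.8 ± 3.20 CPM in shCtrl libraries (SD, n = 3 each). On the log2 scale this was 1.52 (edgeR adjusted p = 6.3e-06). These lists were chosen with earlier results of the data known.

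The genes next to the metallothionein cluster on chromosome 16 showed no difference that passed. Of 8 tested neighbours 0 were higher and 0 lower, against 1.26% and 0.148% of all tested genes. Their median log2 fold change was -0.05, with a range of -0.20 to 0.08. NUDT21, a factor of messenger RNA cleavage, stood at -0.20 and HERPUD1, of endoplasmic reticulum protein quality control, at -0.14. None of the 8 had an unadjusted edgeR p under 0.05, which 11.1% of all tested genes had.

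The genes whose levels over the 6 libraries were most like the mean log2 CPM of the 5 tested metallothioneins were ENDOV (Pearson r = 0.970), CMC1 (0.965), C15orf40 (0.962), ADAT3 (0.948) and TFEB (0.948). They were the highest of 8805 genes of at least 5 CPM, of which 21 exceeded 0.9, and the likeness is a description over 6 libraries, of which the third shTCTP library was the shallowest and stood apart. The range of ENDOV was small, with 12.5 ± 0.308 CPM in shTCTP and 12.4 ± 1.37 CPM in shCtrl libraries (SD, n = 3 each).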

How the data were processed

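Read counts and FPKM values per gene were deposited by the authors for 6 poly(A)-selected, directional libraries. The submitters' processing notes name TopHat2, bcl2fastq and edgeR and the build GRCh38, and the rule of read counting, its annotation and its strand setting are not known here. The members, the lists and the tests were chosen with earlier results of these data known.

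Low genes were removed with filterByExpr and counts scaled with TMM factors. A quasi-likelihood test (edgeR 4.0.16 in R 4.3.3) with group as the only term was run over all genes, with Benjamini-Hochberg adjustment and a threshold of 0.05. Standard errors came from the estimate and its F statistic. The procedure was tested on simulated data. No pair of libraries within a group agreed within counting error, with chi-square values of 13.9 to 85.7 per degree of freedom. Coordinates came from GENCODE release 29, in which 98.0% of gene identifiers were found, and promoters from RefSeq. Lengths were derived from counts and FPKM for 99.1% of tested genes. Coding sequences were aligned with Biopython 1.88.

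Named were the 8 genes, TPT1, other metallothioneins, up to 4 called genes per list, or 2 by smallest p if none was called, and the 5 genes most like the metallothionein mean, from which MT1M was left out as untested. Alternatives were other normalizations and filters, the replicate number as a block, a loess length correction (span 0.3), DESeq2 1.42.0, limma 3.58.1 with voom, limma on log2(FPKM + 1) and log2(FPKM + 0.1), and each library left out.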

Additional observations from a re-analysis of the deposited data

How the results depend on the processing

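Under all 17 alternatives 0 of the 7 tested genes passed in either direction, and MT1M, with an adjusted p only in the fit with no filter, did not pass there. The lowest adjusted p among them was 0.269, for MTF1 without shTCTP library 1. By unadjusted edgeR p under 0.05 the count was 1 of the 7 in the main fit. It was 0 with the replicate block, 0 without shCtrl library 2 and 3 without shCtrl library 3. The share of all tested genes, 11.1%, was taken for the main fit only. The log2 fold changes of MT1E, MT1X and MTF1 stayed above 0 in all 17, and with 1 library left out they ran from 0.08 to 0.42, 0.05 to 0.39 and 0.26 to 0.59. With 1 library left out MT1G ran from -0.09 to 0.44, MT2A from -0.01 to 0.37, SLC30A1 from -0.12 to 0.27 and MT1F from -0.19 to 0.23. MT1F was 0.02 with the replicate block and length correction together, and 0.09 on log2 FPKM with either pseudocount. In the log2(FPKM + 1) and log2(FPKM + 0.1) fits the median of all tested genes was itself 0.06 and 0.09, against -0.00 in the main fit. The cause of the turned sign of MT1F was not tested. Over all genes 200 passed, 317 with no filter, 130 with the replicate block, and 79 to 343 with 1 library left out, lowest without shCtrl library 2 and highest without shTCTP library 3, the library that stood apart. The summed metallothionein ratio, 1.13, ran from 1.02 to 1.31 over the alternatives run for it. Each lay within 1 SD, but that SD, 0.332, came from the spread between libraries and is a wide band. Libraries with the same number did not deviate together (correlations of -0.232, 0.001 and -0.200), so the number was not taken as a pairing, and the replicate block changed no call among the 8 genes. It gave CP an adjusted p of 0.0622 and a log2 fold change of -0.80. For CP the log2 FPKM fits gave -0.57 and -0.68 with adjusted p of 0.353 and 0.288. With 3 libraries a group, the 95% interval of each tested metallothionein includes no difference.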
